A study of Rattus norvegicus with 35 samples.

Results

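The highest dose of ketoconazole was compared with its vehicle after 7 days of dosing, across all miRNAs counted in the rat liver. Oral dosing was of male Sprague-Dawley rats aged 6 weeks, whose livers were collected 24 h following the final dose. The 3 high dose samples came from rats given 100 mg/kg ketoconazole for 7 days, and the 3 control samples from rats given only the vehicle, 0.5% methylcellulose, for the same 7 days. These 6 samples were taken by their labels from 35 in the series, which also held 10 mg/kg (low) and 30 mg/kg (middle) groups and samples of days 3 and 14. Whether the replicates are different rats is not stated in the labels, and p-values refer to the spread among the samples as labelled. All 763 miRNA rows of the deposited count table were considered. Of these, 328 had enough counts to test, and 435 did not. The untested miRNAs held 0.00586% of the counts in the 6 libraries, 242 of all rows were at 0 in all 6, and the largest total of an untested miRNA was 33 counts.

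The azole ketoconazole treats fungal infection by blocking a step of sterol synthesis, and it can injure the liver. A miRNA is cut from a hairpin precursor, whose 5p and 3p arms can each be loaded into the silencing complex, where the seed, bases 2 to 8 of the mature RNA, pairs with target messenger RNAs. Usually one arm (the guide) is kept and the other (the passenger) is degraded, and miRNAs that share a seed are grouped into families because they can share targets. In liver, miR-122-5p and miR-192-5p are typical of hepatocytes, miR-126 of endothelium and miR-143 and miR-145 of smooth muscle and stellate cells.

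The sequences below belong to the miRNAs that changed most and to seed families described further on, whose members moved together or apart, with the seed in capitals, from RefSeq (GRCr8). Both arms are given for miR-22, miR-28 and miR-322, which are among the hairpins with large changes in the ratio of their arms.
miR-22-5p: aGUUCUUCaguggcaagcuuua
miR-22-3p: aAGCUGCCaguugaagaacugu
miR-28-5p: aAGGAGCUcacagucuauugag
miR-28-3p: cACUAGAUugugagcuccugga
miR-322-5p: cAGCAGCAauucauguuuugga
miR-322-3p: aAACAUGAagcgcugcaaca
miR-191a-5p: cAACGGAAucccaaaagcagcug
miR-145-5p: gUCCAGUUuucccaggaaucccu
miR-128-3p: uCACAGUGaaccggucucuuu
miR-671: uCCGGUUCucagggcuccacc
miR-222-3p: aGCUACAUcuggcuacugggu
miR-221-3p: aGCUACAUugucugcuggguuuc

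The next set holds families with a common seed. miR-322-5p, above, has the same seed as miR-16-5p, miR-15b-5p and miR-497-5p. The seed of let-7b-5p and let-7c-5p is common to the let-7 guide arms, and miR-363-3p, miR-25-3p and miR-92a-3p share another.
miR-16-5p: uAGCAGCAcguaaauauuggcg
miR-15b-5p: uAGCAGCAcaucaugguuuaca
miR-497-5p: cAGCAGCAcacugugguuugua
let-7c-5p: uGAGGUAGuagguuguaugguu
let-7b-5p: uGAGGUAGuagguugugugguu
miR-363-3p: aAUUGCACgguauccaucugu
miR-25-3p: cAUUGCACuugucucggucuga
miR-92a-3p: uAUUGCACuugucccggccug

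Total counts were 4749001, 4453452 and 3486287 in the high dose libraries, against 4178766, 2815680 and 3411908 in the control libraries, within the series range of 2665943 to 9665416. Before any test, the 35 libraries fell into 2 clusters on the first principal component of log2 CPM (read counts per 1000000 of the TMM-scaled library total), which carried 46.2% of the variance. The high dose libraries of day 7 scored 4.77, 4.93 and 6.47, in a cluster of 21 libraries that also held the middle dose, the high dose of the other days and the low dose of day 7. The control libraries of day 7 scored -7.47, -14.49 and -13.26, in a cluster of 14 with the other controls and the low dose of days 3 and 14. The labels name no batch, so the dose and whatever else separates these clusters cannot be told apart in this comparison. Control replicate 1 stood nearest to the high dose libraries. Its log2 CPM correlated with theirs at 0.973 to 0.978, against 0.946 to 0.958 for control replicates 2 and 3. The values with replicate 1 as the only control are therefore given beside the results below, as an alternative added after the data were seen.

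Rises and falls between the high dose and control livers were both widespread on day 7. Past a Benjamini-Hochberg adjusted p of 0.05 in the quasi-likelihood test of edgeR were 170 of 328 miRNAs (51.8%). Of these, 79 were higher (24.1% of those tested) and 91 lower (27.7%). The rises were larger than the falls: 50 miRNAs rose and 36 fell at least 2-fold, and 18 rose and 1 fell at least 4-fold. The 3 high dose libraries and the 3 control libraries did not overlap for 184 miRNAs (56.1%), 156 of them also past the threshold. The share past the threshold grew with the level, from 23 of 85 miRNAs below 10 CPM to 45 of 57 at 1000 CPM or more. The median change of all tested miRNAs was -0.13 on the log2 scale. The lists below are read against it and against the 51.8% of all miRNAs that passed. With control replicate 1 as the only control, the median absolute log2 fold change of the 170 was 0.65, against 1.0 with 3 controls. In that fit 168 of 170 kept their sign, a count that is no check on the calls. Replicate 1 was among the controls that made them, and 156 of the 170 had no overlap between groups, so few signs could change. The members nearest the threshold were miR-30d-3p, at 0.37 (adjusted p = 0.0481), just inside it, and miR-23a-3p, at -0.27 (adjusted p = 0.0523), just outside, both by edgeR.

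**Figure D1:**
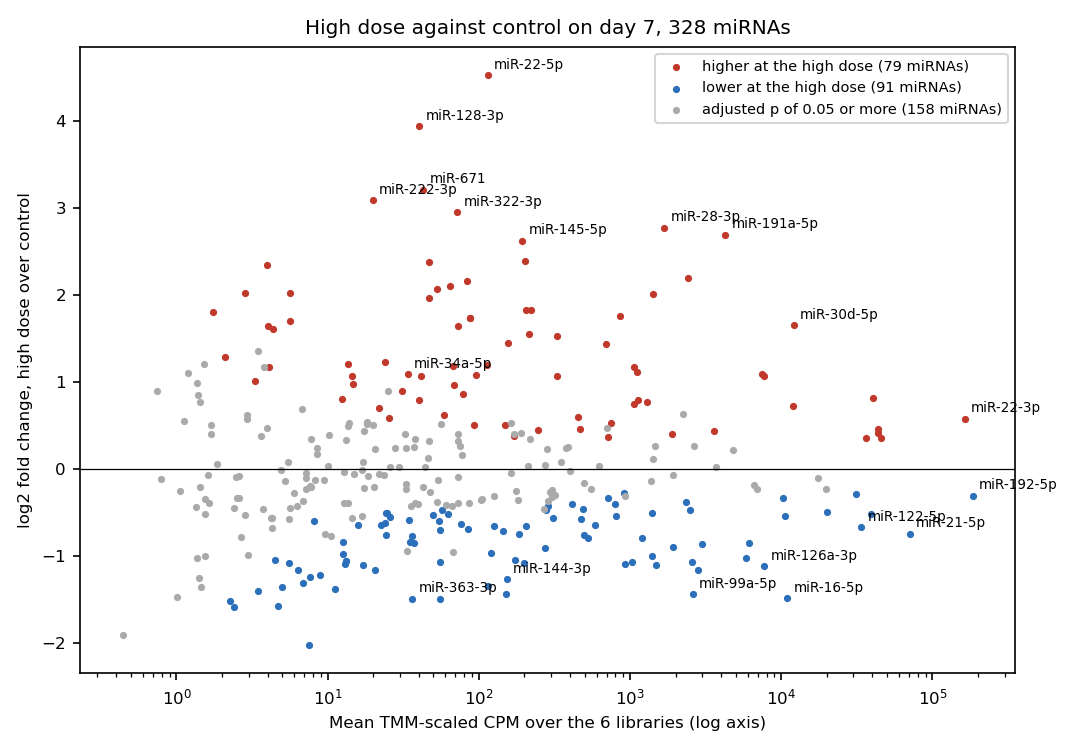
Each point is one of the 328 tested miRNAs, with its mean level over the 6 libraries in TMM-scaled CPM (log axis) and its log2 fold change, high dose over control, on day 7. The 79 higher and 91 lower miRNAs past an adjusted p of 0.05 are coloured, and the largest changes, led by miR-22-5p at 4.52, are rises.

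The largest rise was that of miR-22-5p, the scarce arm of a hairpin whose other arm, miR-22-3p, was the most abundant miRNA of the high dose libraries. miR-22-5p stood at 217, 212 and 227 CPM in the high dose libraries, against 11.9, 4.68 and 11.1 CPM in the controls. The groups were far apart, and the log2 fold change was 4.52 ± 0.27 (± SE throughout, edgeR adjusted p = 9.18e-15, n = 3 each). miR-22-3p itself stood at 175826, 190163 and 220987 CPM, against 152529, 119212 and 121986 CPM, higher by 0.58 ± 0.10. The groups did not overlap for miR-22-3p, but with control replicate 1 alone its change was 0.33 and did not pass.

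Next came miR-128-3p, best known from neurons, at 64.5, 70.4 and 93.8 CPM in the high dose libraries, against 8.23, 3.60 and 2.28 CPM in the controls, a change of 3.94 ± 0.37. miR-671 had 63.5, 70.4 and 99.6 CPM, against 12.4, 5.75 and 6.28 CPM, higher by 3.21 ± 0.31. Every high dose library lay above every control library for both. miR-222-3p, which represses the cell cycle inhibitor p27, stood at 35.1, 35.9 and 35.9 CPM, against 4.8, 2.52 and 4.86 CPM, higher by 3.09 ± 0.30. Its neighbour and seed partner miR-221-3p rose by 1.64 ± 0.30.

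The most abundant of the leading rises was miR-191a-5p. It stood at 7434, 7518 and 7131 CPM in the high dose libraries, against 1435, 997 and 979 CPM in the controls, higher by 2.69 ± 0.19. miR-28-3p was at 2790, 2831 and 3174 CPM, against 595, 361 and 328 CPM, higher by 2.77 ± 0.20. The groups were far apart in both, and in both replicate 1 was the highest control. miR-148a-5p, the minor arm of a liver-abundant hairpin, had 3554, 3748 and 4557 CPM, against 1350, 612 and 631 CPM, and rose by 2.19 ± 0.21, or by 1.52 against control replicate 1 alone.

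Smaller in level were miR-322-3p (113, 137 and 132 CPM, against 18.8, 15.8 and 14.3 CPM), higher by 2.96 ± 0.20, and miR-145-5p (367, 333 and 297 CPM, against 78.0, 38.5 and 44.0 CPM), higher by 2.62 ± 0.25. For both, the lowest high dose library was well above the highest control. miR-423-3p, miR-193b-3p and miR-203b-3p rose by 2.38 ± 0.25, 2.37 ± 0.27 and 2.16 ± 0.23. With control replicate 1 alone, these 12 largest rises all passed, with log2 fold changes of 4.17 for miR-22-5p to 1.52 for miR-148a-5p.

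The largest falls included several abundant miRNAs. miR-16-5p, which represses cyclins and BCL2, had 5860, 5851 and 5652 CPM in the high dose libraries, against 12668, 19836 and 16127 CPM in the controls. The high dose libraries were nearly equal and the controls wide, and the change was -1.49 ± 0.16 (edgeR adjusted p = 2.76e-09, n = 3 each), or -1.16 against control replicate 1 alone. miR-99a-5p, a repressor of mTOR, stood at 1690, 1247 and 1248 CPM, against 3496, 5254 and 2657 CPM, and changed by -1.45 ± 0.22. miR-126a-3p, the endothelial miRNA, was at 5022, 4944 and 4633 CPM, against 7552, 13342 and 10863 CPM, with a change of -1.12 ± 0.16.

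Among scarcer miRNAs, miR-363-3p stood at 20.4, 22.2 and 14.0 CPM, against 40.03, 52.5 and 68.5 CPM, and changed by -1.5 ± 0.26. miR-141-3p, an epithelial miRNA, stood at 34.3, 33.9 and 17.7 CPM, against 49.0, 95.3 and 102 CPM, and changed by -1.5 ± 0.32. Its groups did not overlap, but 1 control was much nearer to the high dose libraries than the others, and against that control, replicate 1, the change was -0.78 and did not pass. miR-466b-5p (-1.16 ± 0.34) and miR-542-5p (-1.11 ± 0.21) likewise did not pass against control replicate 1 alone, at -0.88 and -0.52. The other falls among the largest 12 were miR-24-2-5p (-1.44 ± 0.18), miR-466c-5p (-1.35 ± 0.21), miR-144-3p (-1.27 ± 0.32), miR-125b-5p (-1.17 ± 0.17) and miR-23b-3p (-1.11 ± 0.16), and all of these passed against replicate 1 alone. The only fall of at least 4-fold was that of the scarce miR-210-5p, at 2.79, 3.30 and 2.74 CPM, against 10.3, 12.2 and 14.0 CPM, with a change of -2.03 ± 0.29. It lay below the level of 10 CPM asked of the leading miRNAs. Its partner miR-210-3p, a miRNA induced by hypoxia, was at -0.26 ± 0.14 and did not pass.

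**Figure D2:**
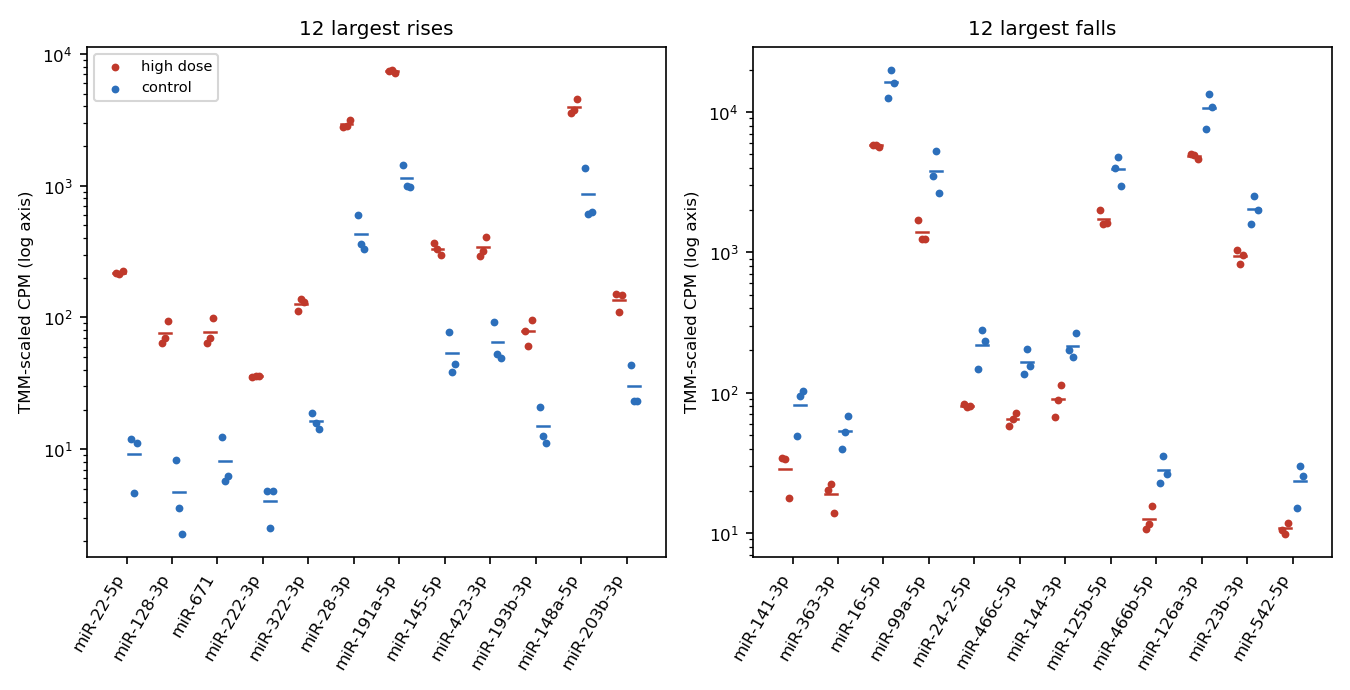
TMM-scaled CPM (log axis) of the 12 largest rises (left panel) and the 12 largest falls (right panel) in each library, with the 3 high dose libraries left of the 3 control libraries and a bar at each group mean. No group pair overlaps, as the choice of these miRNAs required, and the spread is wider among the controls for miRNAs such as miR-16-5p (5652 to 5860 CPM in the high dose libraries, against 12668 to 19836 CPM in the controls).

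The order of the most abundant miRNAs changed. miR-22-3p led each high dose library, with 18.6, 19.4 and 20.8% of the counts, and miR-192-5p led each control library, with 19.8, 22.4 and 20.1%. The 10 most abundant miRNAs of the 6 libraries together held 70.9, 72.2 and 72.1% of the counts at the high dose, against 71.2, 68.8 and 70.1% in the controls, and all 10 passed the threshold, 6 higher and 4 lower. Against control replicate 1 alone, 2 of these 10 passed, miR-122-5p and miR-143-3p. miR-192-5p, at 155746, 162034 and 175728 CPM, against 189699, 226553 and 195968 CPM, was changed by -0.31 ± 0.10. That call ended with no low-count filter (-0.10), with the 6 libraries fitted alone (-0.20), without control replicate 2 (-0.16) and with control replicate 1 alone (-0.23). miR-21-5p, linked to inflammation and fibrosis, stood at 48577, 59612 and 50192 CPM, against 74110, 86364 and 105201 CPM, and changed by -0.75 ± 0.18, or by -0.51 against replicate 1 alone, which did not pass.

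Markers of the hepatocyte itself moved both ways. miR-122-5p, which sustains cholesterol metabolism and leaks into blood on liver injury, had 23629, 25788 and 29068 CPM in the high dose libraries, against 40248, 44676 and 39786 CPM in the controls. The groups were well apart and the change was -0.67 ± 0.14, nearly the same against control replicate 1 alone (-0.65), where it still passed. As a share of counts miR-122-5p was 2.49, 2.63 and 2.74%, against 4.21, 4.41 and 4.08%. Of 15 tested hepatocyte-abundant miRNAs, 80% passed, beside 51.8% of all miRNAs and 78.9% of those at 1000 CPM or more. There 7 rose and 5 fell, with a median of -0.23, beside -0.13 for all miRNAs. The median turned positive with the controls of all 3 days (0.18) and with replicate 1 alone (0.12), where 2 rose and 3 fell. The falls included miR-194-5p (-0.86 ± 0.12) and both arms of miR-122 (-1.07 ± 0.16 for the 3p arm), and the rises both arms of miR-22 and of miR-148a. miR-148a-3p rose by 0.82 ± 0.15, and by 0.39 against replicate 1 alone, which did not pass. The summed level of the list was 533953 to 616354 CPM at the high dose, against 500390 to 536841 CPM in the controls. In bulk liver, fewer cells of a type and less of an RNA per cell cannot be told apart.

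The miR-15/16 and let-7 families, known to restrain cell growth, had falls and no rises. All 6 tested members of the miR-15/16 family, whose seed is AGCAGCA, fell. Their median was -1.06, and it was -0.74 with the controls of all 3 days, where all 6 also fell. Against the day 7 controls, the members after miR-16-5p were miR-15a-5p (-1.09 ± 0.15), miR-497-5p (-1.08 ± 0.17), miR-15b-5p (-1.04 ± 0.19), miR-322-5p (-0.76 ± 0.14) and miR-195-5p (-0.64 ± 0.17). Together they summed to 7886, 8017 and 8017 CPM in the high dose libraries, against 16012, 24693 and 20584 CPM in the controls, which do not overlap. Against control replicate 1 alone miR-195-5p did not pass (-0.40) and the other 5 did.

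Of 9 let-7 guide arms, repressors of RAS and MYC that share the seed GAGGUAG, 6 fell and 0 rose, with a median of -0.52. Among all tested miRNAs 27.7% fell. let-7c-5p stood at 3614, 3778 and 4152 CPM in the high dose libraries, against 5955, 9260 and 8355 CPM in the controls, and changed by -1.03 ± 0.16. let-7b-5p was at 876, 863 and 1048 CPM, against 1475, 2116 and 2000 CPM, and changed by -1.0 ± 0.16. Neither overlapped. miR-98-5p (-0.57 ± 0.12) and let-7a-5p (-0.55 ± 0.13) also fell, but not past the threshold against replicate 1 alone (-0.36 and -0.34) or with no low-count filter (-0.35 and -0.33). Against replicate 1 alone 2 of the 9 passed, let-7b-5p and let-7c-5p, both lower, and the median was -0.34. The scarce passenger arms of let-7 hairpins, looked at after these values were seen, went the other way in several cases. Higher were let-7e-3p by 2.35 ± 0.37, let-7f-2-3p by 1.96 ± 0.27, let-7a-1-3p by 1.74 ± 0.21 and let-7d-3p by 1.07 ± 0.20. Of these, let-7e-3p lay below 10 CPM, at means of 6.75 CPM at the high dose and 1.23 CPM in controls. let-7i-3p was lower at -0.60 ± 0.24, and let-7b-3p, let-7g-3p, let-7f-1-3p (0.01) and miR-98-3p (0.69) did not pass. Not every tested passenger arm is named here, and 24.1% of all tested miRNAs were higher.

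Other families were split. Of the 5 tested miRNAs with the seed AUUGCAC, the family of miR-25, miR-92 and miR-363, 2 rose and 3 fell. miR-92a-3p had 9785, 10212 and 11108 CPM in the high dose libraries, against 6245, 4373 and 4215 CPM in the controls, higher by 1.07 ± 0.17. miR-25-3p had 1445, 1103 and 1447 CPM, against 2004, 3004 and 2460 CPM, with a change of -0.90 ± 0.15. The pair moved in opposite directions, with no overlap between groups in either. miR-92b-3p rose by 2.02 ± 0.32 at a mean of 9.06 CPM at the high dose and 2.25 CPM in controls. miR-32-5p, at -0.59 ± 0.20, was not called without control replicate 1 (-0.51) or 3 (-0.47), or without high dose replicate 2 (-0.55) or 3 (-0.52).

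Of 7 miRNAs of the miR-17 and miR-18/19 families, drivers of proliferation in many tumours, 57.1% passed, near the 51.8% of all miRNAs. There 3 fell (miR-17-5p at -0.66, miR-18a-5p at -0.65 and miR-93-5p at -0.54) and 1 rose, miR-20a-5p at 0.45. The call for miR-20a-5p ended with library size as the only scaling (0.43), the replicate block (0.45) and the 6 libraries fitted alone (0.55). It also ended without control replicate 2 (0.52) or 3 (0.36) or high dose replicate 1 (0.36) or 2 (0.46). Against replicate 1 alone the change was 0.19. The calls for miR-18a-5p and miR-93-5p ended with the controls of all 3 days (-0.25 each), where 2 rose and 1 fell, and with no low-count filter (-0.42 and -0.32). That for miR-18a-5p also ended with the 6 libraries fitted alone (-0.53). So it did without control replicate 1 (-0.58) or 2 (-0.35) or high dose replicate 2 (-0.54) or 3 (-0.53). Against replicate 1 alone miR-18a-5p was at -0.55 and miR-93-5p at -0.39.

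Of 5 guide arms of the miR-30 family, abundant in hepatocytes, 4 rose and 0 fell, with a median of 0.43. Among all tested miRNAs 24.1% rose, and at 1000 CPM or more 45 of 57 passed, 21 of them higher. miR-30d-5p stood at 15017, 19140 and 20979 CPM in the high dose libraries, against 7239, 5029 and 5263 CPM in the controls, higher by 1.65 ± 0.16 and by 1.31 against replicate 1 alone. miR-30e-5p (0.72 ± 0.12), miR-30b-5p (0.43 ± 0.11) and miR-30a-5p (0.35 ± 0.09) rose less, and none of these 3 passed against replicate 1 alone (0.48, 0.38 and 0.32). Both tested miRNAs of the list of miR-193 and miR-365 rose, miR-193b-3p and miR-365-3p (2.10 ± 0.29), as did 2 of 3 in the list of miR-221 and miR-222. The miR-193a-3p arm, outside that list, rose by 1.11 ± 0.21.

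All 6 tested rows of the rodent miR-466 family fell, with a median of -1.20, though a pair of them, represented here by miR-466b-2-3p (-1.06 ± 0.22), are the same counts deposited under 2 names, and reads of such near-identical copies may be shared. Against replicate 1 alone 3 of the 6 rows passed, with a median of -0.87. In the miR-99/100 family, miR-99a-5p and miR-100-5p fell and miR-99b-5p did not pass (0.020 ± 0.17). miR-100-5p, at 1259, 668 and 695 CPM in the high dose libraries, against 1147, 2288 and 1134 CPM in the controls, overlapped between groups. Its change of -0.80 ± 0.25 was not called without control replicate 2 (-0.30), without high dose replicate 2 (-0.64) or without high dose replicate 3 (-0.58). Of 8 tested miRNAs of the imprinted Dlk1-Dio3 locus 1 passed, beside 51.8% of all miRNAs: miR-136-5p fell (-1.22 ± 0.50, and -0.046 against replicate 1 alone). The others did not pass, including miR-411-5p at -0.95 ± 0.46 and miR-434-3p at 0.89 ± 0.51. With DESeq2's size factors 0 of the 8 passed, and with the controls of all 3 days 1 was higher and 0 were lower.

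**Figure D3:**
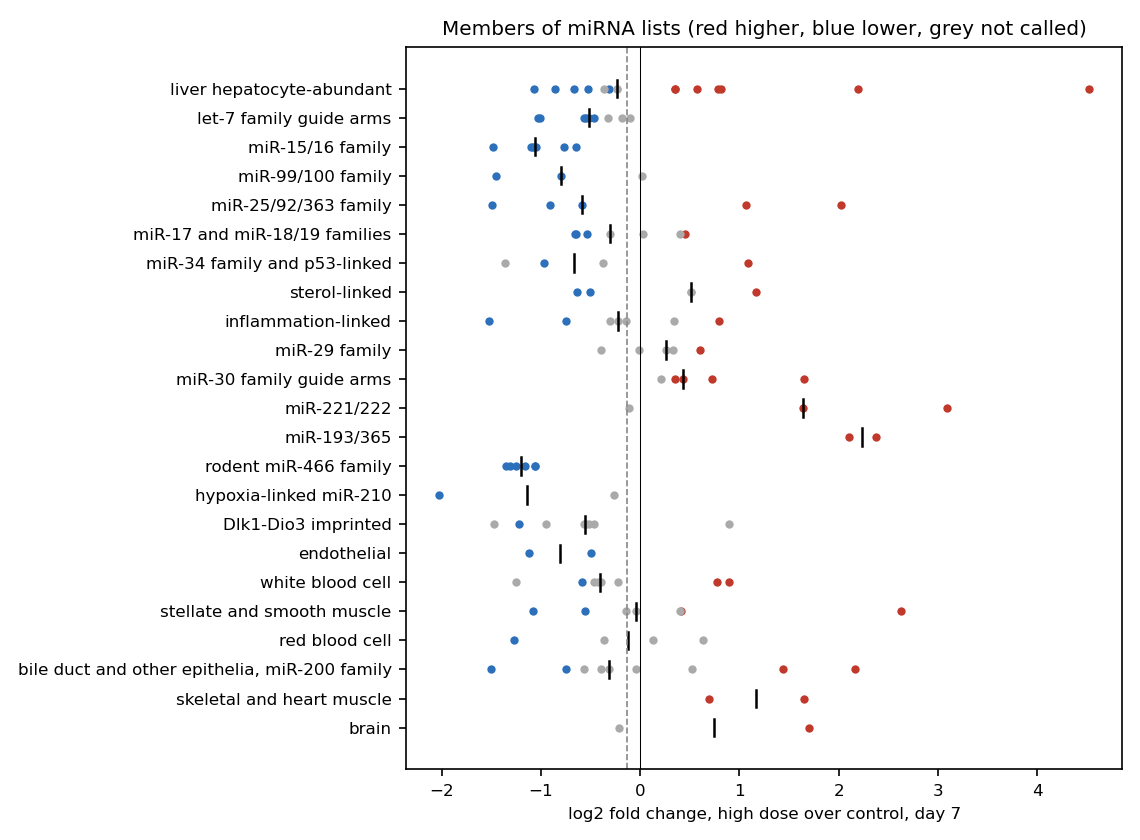
Log2 fold change, high dose over control, of every tested member of each list of miRNAs, 1 row per list, in red where higher and blue where lower past an adjusted p of 0.05 and in grey otherwise. The short black bars are list medians, the dashed line is the median of all 328 tested miRNAs (-0.13), and the pancreas list, with 1 tested member, is left out. All 6 members of the miR-15/16 family and all 6 rows of the miR-466 family lie left of the dashed line.

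In the lists tied to injury and metabolism, 2 of 4 p53-linked, 3 of 5 sterol-linked, 3 of 7 inflammation-linked and 1 of 5 miR-29 family miRNAs passed, shares near or below the 51.8% of all miRNAs. miR-34a-5p, a target of p53, stood at 48.7, 35.4 and 54.2 CPM in the high dose libraries, against 26.8, 18.7 and 19.1 CPM in the controls. It rose by 1.09 ± 0.30 with no overlap. Its relative miR-34c-5p was at 76.4, 86.2 and 83.1 CPM, against 145, 191 and 145 CPM, and fell by 0.97 ± 0.27 on the log2 scale. The other 2 tested members of that list did not pass. miR-331-3p stood at 115, 77.6 and 78.3 CPM, against 59.2, 36.3 and 43.1 CPM, higher by 0.96 ± 0.27. Against control replicate 1 alone none of these 3 passed, at 0.75, -0.85 and 0.59.

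Of 5 sterol-linked miRNAs 1 rose and 2 fell. miR-182, which is induced by the sterol regulator SREBP-2 in mice, stood at 1416, 1792 and 1212 CPM in the high dose libraries, against 644, 697 and 623 CPM in the controls, higher by 1.17 ± 0.21 and by 0.65 against the controls of all 3 days. miR-33-5p, encoded within the gene of SREBP-2 and a repressor of cholesterol export, stood at 60.7, 51.0 and 66.1 CPM, against 73.7, 105 and 97.4 CPM, and fell by 0.64 ± 0.17. miR-33-3p also fell, at -0.51, and the neighbours of miR-182, miR-96-5p (0.51 ± 0.35) and miR-183-5p (0.51 ± 0.43), did not pass. miR-33-5p did not pass with no low-count filter (-0.41) or against replicate 1 alone (-0.35), nor did miR-33-3p against that control (-0.31).

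Of 7 inflammation-linked miRNAs, miR-146b-5p rose by 0.79 ± 0.27, though its groups overlapped (36.5, 63.3 and 53.3 CPM at the high dose, against 37.7, 24.5 and 25.7 CPM in the controls) and the call ended without either of control replicates 2 and 3 (0.74 and 0.72). Besides miR-21-5p, the scarce miR-212-5p fell (-1.52 ± 0.59, at means of 1.09 CPM at the high dose and 3.44 CPM in controls), but not past the threshold against replicate 1 alone. With the controls of all 3 days 0 of the 7 rose and 1 fell, and against replicate 1 alone 0 passed. Of the miR-29 family, repressors of collagen genes, 1 of 5 passed, miR-29c-3p at 0.60 ± 0.19, and it did not pass against the controls of all 3 days (0.36) or against replicate 1 alone (0.36). With the controls of all 3 days 0 of the 5 rose and miR-29b-3p fell (-0.58).

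Markers of other cell types moved in different directions. In the stellate and smooth muscle, white blood cell, red blood cell and epithelial lists 57.1, 37.5, 25 and 44.4% passed, beside 51.8% of all miRNAs. Both endothelial miRNAs fell (miR-126a-5p at -0.50 ± 0.10), and their sum was 21284 to 22111 CPM at the high dose, against 29074 to 37855 CPM in the controls. Of 7 stellate and smooth muscle miRNAs, miR-145-5p and miR-143-3p (0.42 ± 0.11) rose and miR-214-3p (-1.08 ± 0.22) and miR-143-5p (-0.56 ± 0.22) fell, with a sum of 47868 to 54393 CPM, against 36657 to 42215 CPM. Against replicate 1 alone miR-214-3p was at -0.29 and did not pass. The call for miR-143-5p ended when any library other than control replicate 3 was left out (-0.54 to -0.19), and in DESeq2 (-0.48). Of 8 white blood cell miRNAs, miR-342-3p (0.90 ± 0.26) and miR-142-5p (0.77 ± 0.21) rose, miR-150-5p fell (-0.58 ± 0.19), and the sums overlapped, at 1954 to 2888 CPM, against 1556 to 2214 CPM. Both of those rises were lost with the controls of all 3 days (0.45 and 0.35), and the fall of miR-150-5p without control replicate 1 (-0.45) or without high dose replicate 1 (-0.45) or 3 (-0.49). With the controls of all 3 days 0 of the 8 rose and 3 fell, and against replicate 1 alone 0 passed.

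Of 4 red blood cell miRNAs only miR-144-3p passed, while miR-451-5p (-0.37 ± 0.32) and miR-486 (0.63 ± 0.33) did not, and the sums were 2262 to 3643 CPM, against 1521 to 3210 CPM. Of 9 miRNAs of the miR-200 and epithelial list, miR-203a-3p (1.44 ± 0.17) and miR-203b-3p rose, and miR-141-3p and miR-200a-3p (-0.75 ± 0.20) fell. The call for miR-200a-3p ended without control replicate 3 (-0.41), with no low-count filter (-0.51) and with the 6 libraries fitted alone (-0.62). Against replicate 1 alone miR-200a-3p was at -0.15. The list median was -0.31. It was -0.054 with the controls of all 3 days, where 3 rose and 2 fell, and 0.62 against replicate 1 alone. The list summed to 2173 to 2617 CPM, against 1517 to 2303 CPM. Of the muscle and brain markers, miR-1-3p, miR-133b-3p, miR-206-3p and miR-124-3p were at 0 in all 6 libraries, where 0 counts allow up to 0.599 to 1.08 CPM by counting error. The pancreas list summed to 274, 221 and 339 CPM, against 322, 233 and 252 CPM, and its 1 tested member, miR-375-3p, was at 0.048 ± 0.22 and did not pass. The muscle miRNAs miR-499-5p (0.70 ± 0.27) and miR-133a-3p (1.65 ± 0.68) and the brain miRNA miR-9a-5p (1.70 ± 0.38) passed, with sums of 29.9 to 35.1 CPM for the muscle list, against 15.99 to 22.2 CPM, and 11.6 to 18.8 CPM for the brain list, against 9.14 to 14.0 CPM. The miR-499-5p call ended without control replicate 2 (0.74) or 3 (0.58) and without high dose replicate 1 (0.65) or 3 (0.65). The part of any cell type in the results was not tested.

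The balance between the arms of hairpins shifted. In limma on the log2 ratio of 5p to 3p counts within each library, which does not depend on the scaling between libraries, 47 of 96 hairpins passed an adjusted p of 0.05 (49%). The ratio was higher at the high dose in 20 (20.8%) and lower in 27 (28.1%). The shift was toward the arm that was scarcer over the 6 libraries in 23 hairpins and toward the more abundant arm in 24. With control replicate 1 as the only control, 26 hairpins passed.

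In 2 of the 12 hairpins with the largest shifts, miR-28 and miR-145, the major arm changed. For miR-28, with the arms printed above, the log2 ratio was -2.38, -2.19 and -2.08 in the high dose libraries, against 0.44, 1.18 and 1.24 in the controls. The 3p arm was thus the more abundant in each high dose library and the 5p arm in each control, a change of -3.17 ± 0.19. miR-28-5p itself was at 535, 622 and 753 CPM, against 809, 818 and 777 CPM, a change of -0.33 ± 0.11. For miR-145 the log2 ratio was 0.91, 1.32 and 0.95, against -1.31, -2.21 and -1.51, a change of 2.74 ± 0.26. There miR-145-3p did not pass (-0.046 ± 0.19), while miR-145-5p rose.

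For miR-322 the log2 ratio was 1.58, 1.59 and 1.40 in the high dose libraries, against 4.91, 5.44 and 5.38 in the controls, a change of -3.72 ± 0.22. The 5p arm, a member of the miR-15/16 family, stayed the major arm while it fell, and the 3p arm rose. For miR-22 the log2 ratio was -9.66, -9.81 and -9.93, against -13.63, -14.58 and -13.40, higher by 4.08 ± 0.24 with 3p the major arm in each library. For miR-191a the log2 ratio was 8.45, 8.78 and 8.34, against 5.68, 4.92 and 5.29, higher by 3.23 ± 0.25, since the major 5p arm rose and miR-191a-3p fell (-0.51 ± 0.18). miR-152 (1.70 ± 0.23), miR-144 (1.47 ± 0.22) and miR-148a (1.44 ± 0.21) also shifted toward 5p, and miR-99a (-2.50 ± 0.32), miR-872 (-2.36 ± 0.22), miR-15b (-2.32 ± 0.29) and miR-194 (-1.93 ± 0.26) toward 3p. The high dose and control ratios did not overlap in these 12 hairpins. They were chosen as the largest shifts past the threshold, so this adds little to their choice, and 56.1% of single miRNAs did not overlap.

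Both arms passed the edgeR test in 30 of the 96 hairpins. In 18 they moved the same way and in 12 opposite ways. Among all tested miRNAs 24.1% were higher and 27.7% lower, so some opposite pairs would occur with unlinked arms. Whether there were more of them than those shares would give was not tested. The 12 were let-7d, miR-143, miR-151, miR-152, miR-15b, miR-191a, miR-194, miR-28, miR-30b, miR-322, miR-872 and miR-99a, and the scarcer arm was the one that rose in 8 of them. miR-143 is among the 12 through the call for miR-143-5p. That call ended in DESeq2 (-0.48), with DESeq2's size factors (-0.49) and with the controls of all 3 days (-0.44), among other alternatives. In miR-99a, for example, the guide fell by 1.45 while miR-99a-3p stood at 106, 150 and 136 CPM at the high dose, against 78.5, 56.1 and 49.98 CPM in the controls, higher by 1.08 ± 0.21. In miR-872, the 3p arm was at 328, 328 and 388 CPM, against 139, 67.6 and 85.4 CPM, higher by 1.83 ± 0.19, and the 5p arm changed by -0.46 ± 0.10.

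**Figure D4:**
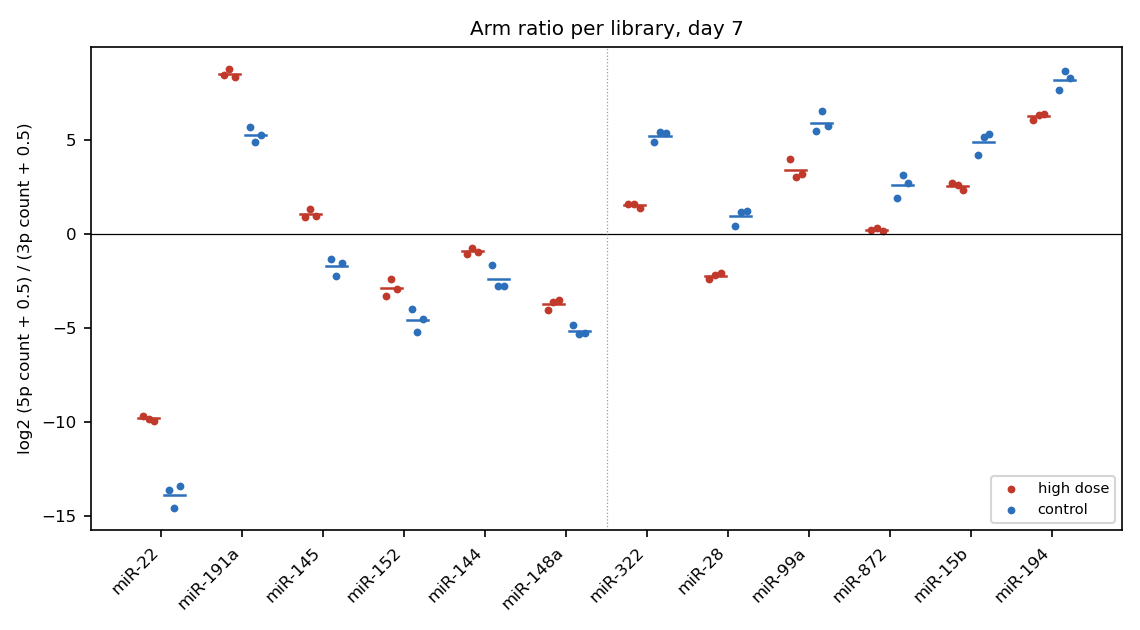
Log2 ratio of 5p to 3p counts per library for the 12 named hairpins, with the 3 high dose libraries left of the 3 control libraries and a bar at each group mean. The 6 hairpins left of the dotted line had a higher ratio at the high dose and the 6 right of it a lower one, and miR-145 and miR-28 lie on opposite sides of 0 in the 2 groups.

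The same contrast was made on days 3 and 14, which share no library with day 7. At the high dose 115 of 328 miRNAs passed on day 3 (35.1%) and 116 on day 14 (35.4%). Of the day 7 calls, 100 passed in the same direction on day 3 (58.8% of the day 7 calls and 87.0% of the day 3 calls) and 95 on day 14 (55.9% and 81.9%). On all 3 days 79 passed in the same direction, and 54 passed on day 7 but on neither other day. Over the 170 day 7 calls, the median absolute log2 fold change was 0.59 on day 3 and 0.58 on day 14, against 1.0 on day 7, the day on which they were chosen. For miR-145-5p the change was 1.73 ± 0.23 (day 3), 2.62 ± 0.25 (day 7) and 1.74 ± 0.27 (day 14). For miR-16-5p it was -0.79 ± 0.16, -1.49 ± 0.16 and -0.83 ± 0.17 in the same order.

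Tested directly, no difference between days passed. The high dose effect on day 7 minus that on day 3 gave 0 miRNAs past the threshold by edgeR (0%) and 0 by DESeq2, and 36 had an unadjusted p below 0.05 by edgeR. The smallest p-values were those of miR-421-3p (-0.86 ± 0.23), miR-182 (1.10 ± 0.30) and miR-210-5p (-1.39 ± 0.39), each at an adjusted p of 0.138 by edgeR. For miR-182 the high dose mean was 1473 ± 294 CPM on day 7 and 1417 ± 119 CPM on day 3, beside control means of 655 ± 38 and 1346 ± 280 CPM (SD, n = 3 each). Day 7 minus day 14 also gave 0 by edgeR (0%) and 0 by DESeq2. There 36 had an unadjusted p below 0.05 by edgeR, first among them miR-199a-5p (0.89 ± 0.26), miR-122-3p (-0.83 ± 0.24) and miR-598-3p (-1.45 ± 0.45). Without control day 7 replicate 1, 19 passed against day 3 (16 more positive on day 7) and 13 against day 14 (12 more positive).

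The day 7 controls themselves differed from the controls of days 3 and 14 in 29 miRNAs (8.84%), 15 higher (4.57%) and 14 lower (4.27%). miR-411-5p (1.48), miR-598-3p (0.97), miR-455-5p (0.82) and miR-181a-2-3p (0.77) were higher and miR-96-5p (-0.99), miR-145-5p (-0.92), miR-350 (-0.79) and miR-182 (-0.78) lower in the day 7 controls. This count rested on single libraries: it was 86 without control day 7 replicate 1, 0 without either control day 7 replicate 2 or 3, and 2 to 12 without any of control day 3 replicate 3 and control day 14 replicates 1 and 2. With the controls of all 3 days in place of those of day 7, 166 miRNAs passed for the high dose (79 higher), 145 of them among the 170. Of the 29 miRNAs that differed between control days, 23 were among the 170 calls (13.5% of these, beside 8.84% of all miRNAs). Of the 23, 11 rose at the high dose and were lower in the day 7 controls. The other 12 fell and were higher there, such as miR-16-5p (0.64 ± 0.14). The day 7 controls enter both comparisons, which favours such opposite signs.

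**Figure D5:**
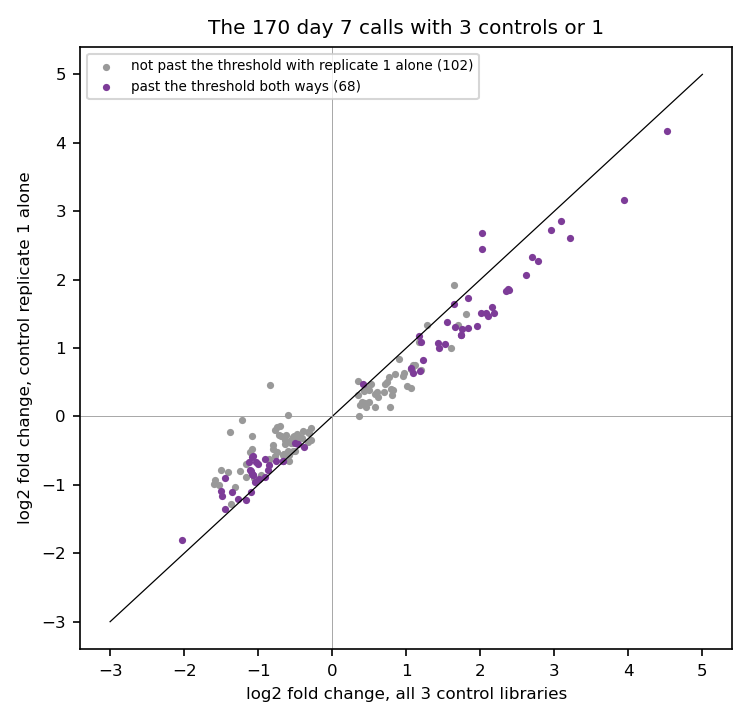
Log2 fold change of the 170 miRNAs past the threshold, high dose over control on day 7, with all 3 control libraries (horizontal axis) and with control replicate 1 alone (vertical axis). The line marks equal values. Most points lie nearer to 0 on the vertical axis, and 68 passed with replicate 1 alone.

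Between the high and the middle dose of day 7, 0 miRNAs passed by edgeR (0%) and 0 by DESeq2, 45 had an unadjusted p below 0.05 by edgeR, and 6 passed without middle dose replicate 2. The smallest p-values were those of miR-30a-3p (-0.66 ± 0.17), let-7g-3p (0.74 ± 0.21) and miR-30e-3p (-0.61 ± 0.18), each at an adjusted p of 0.106 by edgeR. miR-34a-5p averaged 46.1 ± 9.7 CPM at the high dose and 25.8 ± 9.9 CPM at the middle dose (SD, n = 3 each), a difference of 0.83 ± 0.30 that did not pass (edgeR adjusted p = 0.154).

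Against the low dose of day 7, in the same cluster of libraries, 79 miRNAs passed (24.1%), 23 higher (7.01%) and 56 lower (17.1%). The median of all miRNAs in this contrast was -0.20, and with DESeq2's size factors, which moved that median to -0.041, 54.0% of the calls were higher in place of 29.1%. Without high dose replicate 3, 49 passed, and with no low-count filter 45. miR-331-3p averaged 90.3 ± 21.4 CPM at the high dose and 49.5 ± 7.3 CPM at the low dose (SD, n = 3 each), higher by 0.87 ± 0.27. miR-532-5p (0.89 ± 0.20), miR-598-3p (1.18 ± 0.30) and miR-15b-3p (0.84 ± 0.26) were also higher.

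Of the 4 largest falls against the low dose, 3 were in miRNAs that were highest at the low dose among the day 7 groups. miR-193a-3p averaged 1527 ± 264 CPM at the high dose and 4054 ± 458 CPM at the low dose, a difference of -1.41 ± 0.21, with 706 ± 166 CPM in the day 7 controls (SD, n = 3 each). miR-374-5p averaged 21.4 ± 1.6 CPM at the high dose and 51.8 ± 3.4 CPM at the low dose, a difference of -1.28 ± 0.20, with 22.3 ± 2.2 CPM in the controls. miR-150-5p, a lymphocyte miRNA, averaged 377 ± 89 CPM at the high dose and 882 ± 113 CPM at the low dose, a difference of -1.23 ± 0.19. miR-201-5p differed by -1.23 ± 0.42.

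Leading miRNAs of the comparison with control already stood far from it at the low dose of day 7. miR-22-5p averaged 9.24 ± 3.97 CPM in the day 7 controls, 149 ± 16 CPM at the low, 189 ± 59 CPM at the middle and 219 ± 7 CPM at the high dose of day 7 (SD, n = 3 each). High against low, miR-22-5p differed by 0.56 ± 0.22 and did not pass (edgeR adjusted p = 0.0601). At the low dose of days 3 and 14, miR-22-5p averaged 15.1 ± 3.4 and 16.5 ± 1.7 CPM, near the controls. miR-191a-5p averaged 1137 ± 258, 10474 ± 353, 9132 ± 1181 and 7361 ± 203 CPM from control to high dose on day 7, and differed by -0.51 ± 0.17 between the high and the low dose, past the threshold. miR-34a-5p and miR-331-3p rose in the high dose group, and against the day 7 control neither the middle (0.25 ± 0.31 and 0.55 ± 0.27) nor the low dose (0.41 ± 0.31 and 0.09 ± 0.27) passed for them. The contrasts with control share the control libraries. Tested directly, high against middle dose passed for neither (0.83 ± 0.30 and 0.41 ± 0.27), so a difference between those doses was not shown. Against control replicate 1 alone the high dose changes were 0.75 and 0.59.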

How the data were processed

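The authors deposited raw read counts per mature miRNA, whole numbers with no normalization, for 763 rat miRNAs in 37 count columns, which give 35 libraries after repeat runs of 2 libraries were summed. Per the labels' protocols, extraction used RNeasy Plus Universal Mini and library preparation used Illumina TruSeq Small RNA. The build was rn6, per the submitters' processing notes. For the aligner, counter, annotation release and treatment of reads shared by near-identical miRNAs, the program or rule is not given in the sources used here. No genome coordinates are printed. Reads carry no stated molecular identifiers, so the limits for 0 counts (3 counts) cover counting error only.

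After filterByExpr (minimum count 10, minimum total 15) and TMM scaling, all 35 libraries entered a robust quasi-likelihood fit of 12 group means in edgeR 4.0.16 under R 4.3.3, with 23 residual degrees of freedom. Adjustment was by Benjamini-Hochberg in each comparison separately, at a threshold of 0.05. Standard errors were taken as the size of the log2 fold change over the root of its F statistic. CPM uses TMM-scaled library sizes with no added count, and log2 CPM for principal components a prior count of 2. Arm ratios, log2((5p + 0.5)/(3p + 0.5)), were fitted in limma 3.58.1 over the 96 hairpins with both arms tested. The depth of the 6 libraries was 2815680 to 4749001 counts.

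The named miRNAs are the 12 largest changes each way past the threshold with a mean of at least 10 CPM and no overlap between groups, the 10 most abundant, up to 4 members of each list with at least 10 CPM, 5 miRNAs always reported, the 4 largest each way (or 3 smallest p) of the other comparisons, and the 6 largest arm ratio changes each way. Other named miRNAs were chosen after their values were seen, among them the let-7 passenger arms, miR-92b-3p, miR-193a-3p, miR-210-5p, miR-195-5p, miR-322-5p and the arms of the hairpins. The comparison, its members and the lists were chosen with earlier results of these data known. Of the tested miRNAs, 292 of 328 matched a RefSeq mature sequence (GRCr8) by name.

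Alternatives were other scalings, no low-count filter, a stricter one (3 or more libraries at 10 CPM or more), only the libraries compared, DESeq2 1.42.0, the replicate number as a block, the controls of all 3 days, each library left out and, added after the data were seen, control replicate 1 as the only control. No pair of replicates agreed within counting noise (chi-square per degree of freedom of at least 66.0 in the 6 libraries). On simulated counts for the day 7 comparison (325 miRNAs, 198 changed), the test recovered 42.9% of 1.5-fold and 74% of 2-fold changes and called 4 of 127 unchanged miRNAs. For the arm ratios, 70.7% of 41 simulated shifts of at least 2-fold were recovered, with 0 calls among 22 unchanged hairpins. Both simulations drew counts independently, with 1 spread per miRNA in all groups. The real day 7 controls were less even: chi-square per degree of freedom was 330 and 340 between control replicate 1 and the other controls. Among the high dose libraries it was 66.0 to 115. The simulated rates therefore do not cover that unevenness. Figures were drawn with matplotlib 3.10.9.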

Additional observations from a re-analysis of the deposited data

How the results depend on the processing

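The count of 170 miRNAs changed on day 7 stayed between 130 and 176 when any 1 library was left out. It was 171 with DESeq2's size factors, 172 with library size alone, 169 in DESeq2, 158 with the stricter filter, 142 with no low-count filter, 132 with only the 6 libraries and 166 with the controls of all 3 days. The share of calls that were higher was 46.5%, and 66.9% with no low-count filter, which moved the median of all miRNAs from -0.13 to 0. With control replicate 1 as the only control the count was 68 miRNAs and 26 hairpins, in place of 170 and 47, and that fit assumes that the lone control varies like the other groups. The count of 47 hairpins was 38 to 48 when any 1 library was left out. No paired reading was made, since the labels give same-numbered samples no stated link. Deviations of same-numbered high dose and control libraries from their group means correlated at 0.004, -0.010 and -0.138. With 3 libraries per group, these values cannot show whether such samples shared a step. The replicate block gave 167 miRNAs, 163 of them among the 170, and 47 hairpins. Of the 24 leading miRNAs, 357 of 360 values under the alternatives kept their call, and of 73 named calls 39 were kept in every alternative run and 53 in every one other than the single control. All 144 values of the 12 named hairpins kept their call.

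Values of miRNAs that did not pass changed sign for miR-99b-5p without single libraries (-0.16 to 0.26) and with the controls of all 3 days (-0.15). With those controls so did miR-96-5p (-0.15), miR-183-5p (-0.051), miR-411-5p (0.041) and miR-136-3p (0.36). With replicate 1 as the only control so did miR-411-5p (0.10), miR-127-3p (0.11), miR-136-3p (0.32), miR-144-5p (-0.45) and miR-375-3p (-0.25), the last 2 also without single libraries (-0.072 to 0.61 and -0.067 to 0.29). The differences between days gave 0 to 19 calls against day 3 and 0 to 13 against day 14 when any 1 library was left out, and high against middle dose 0 to 6. High against low dose gave 49 to 67 and, with no low-count filter, 45 in place of 79. The difference between control days, 29 miRNAs, gave 0 to 86 without single libraries, 19 with no low-count filter, 0 with the replicate block and 0 with only the control libraries. The cause of these differences was not tested. Below 10 CPM the median standard error of a log2 fold change was 0.45, against 0.15 at 1000 CPM or more, so changes of scarce miRNAs were less detectable.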

Other observations

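Products of neighbouring hairpins were set side by side, with neighbours taken from the RefSeq annotation (GRCr8, hairpins within 10000 bases of each other). Of the 5 tested products of the Mir23a, Mir24-2 and Mir27a hairpins 4 fell and 0 rose, and so did 4 of 5 of Mir23b, Mir24-1 and Mir27b, although the 2 groups share miR-24-3p (-0.80 ± 0.16). The largest fall among them was in a scarce arm: miR-24-2-5p stood at 82.8, 78.7 and 81.0 CPM in the high dose libraries, against 148, 280 and 233 CPM in the controls, and miR-27a-5p changed by -1.41 ± 0.42, a call that ended with control replicate 1 as the only control (-0.81). Of 4 products of Mir25 and Mir93, 3 fell. Of 9 products of the Mir322, Mir351, Mir450, Mir503 and Mir542 hairpins 3 rose and 2 fell, and of 4 of Mir192 and Mir194-2, 1 rose and 3 fell. Among all tested miRNAs 24.1% rose and 27.7% fell. These groups were picked from a larger set of neighbours after their values were seen and carry no test.

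Of the 11 seed families with at least 3 tested members, 5 had changes in both directions, 3 only falls and 3 only rises. The median GC content of the mature sequence was 47.6% in the 71 higher miRNAs with a RefSeq sequence, in the 81 lower ones and in the 140 that did not pass. The last base was G in 21.1% of the higher miRNAs, 34.6% of the lower ones and 18.6% of those that did not pass, and U in 40.8, 23.5 and 31.4%. Across 292 miRNAs, Spearman's rho of the log2 fold change was -0.035 with GC content and 0.107 with length. The 27 miRNAs below 35% GC had a median log2 fold change of 0.32, with 8 higher and 4 lower, beside medians of -0.29 to -0.11 in the 5 bins of higher GC. miRNAs of one family or hairpin are not independent, and this is a description.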
